A study of Mus musculus with 24 samples.

Results

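The comparison described here is that of the retina after 24 hours of hyperoxia with the retina of pups kept in room air, both at postnatal day 8. Its members are 6 of the 24 arrays of the series, the 3 labelled day 8 hyperoxia and the 3 labelled day 8 normoxia, with every probe set on them that is not a control. The whole series holds 8 groups of 3 arrays: C57Bl/6 mice at postnatal days 7, 8, 10 and 12 in normal air, and mice of the same ages after 12, 24, 72 and 120 hours in hyperoxia. Each array took the total RNA of 1 retina sample and reads a gene through 1 or more sets of oligonucleotide probes. No mutation, transgene or drug is named for any group, so the pair of groups compared here differ in the labels by the gas alone. The labels leave out the oxygen concentration, the sex of the pups and the number of animals behind each array. The labels do not say that the replicates came from separate animals, so the p-values below are set against a spread between samples that could be technical only. RNA of the whole tissue was measured, so fewer cells of a type and less RNA per cell cannot be told apart.

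The retina of a newborn mouse is vascularised after birth, and its vessels are still growing in the second postnatal week. Oxygen sets the pace of that growth: in low oxygen the prolyl hydroxylases cannot mark the hypoxia-inducible factors (HIF) for destruction, and HIF then switches on the vascular growth factor gene Vegfa, the genes of glycolysis and glucose uptake, and genes that turn down mitochondrial respiration. Excess oxygen in this period is the first phase of the mouse model of oxygen-induced retinopathy, in which Vegfa falls and immature capillaries are lost.

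Of 15838 probe sets tested, 13 probe sets of 12 genes differed between hyperoxia and room air at day 8, and all 13 were lower in hyperoxia. The threshold was a Benjamini-Hochberg adjusted p under 0.05 in a limma fit over all 24 arrays, and the share past it was 0.0821% of the probe sets tested. The genes were Bnip3, Vegfa, Pfkl, Tpi1, Pdk1, Ak4, Pfkp, Grhpr, Pgam1, Slc16a3, Mag and Cox4i2. Their decreases ran from 0.49 to 1.31 on the log2 scale, where a decrease of 1 is a halving. On all 13 probe sets the 3 hyperoxia arrays lay below the 3 room air arrays without overlap, a separation that 869 probe sets (5.49%) showed in this direction and 709 (4.48%) in the opposite one. No probe set was called higher, although 346 (2.18%) were higher at an unadjusted p under 0.05, beside 433 (2.73%) that were lower. The sum of these, 779 (4.92%), was close to 792, which is 0.05 of the probe sets tested. The median difference over all probe sets was 0.0037, a value that the normalization of each array holds near 0.

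The number called moved with the arrays in the fit. It was 7 without room air replicate 2, 8 without hyperoxia replicate 1, and 9 to 11 without any other single day 8 array. With the 6 day 8 arrays alone, in place of all 24, no probe set was called by limma, and 720 had an unadjusted p under 0.05.

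**Figure D1:**
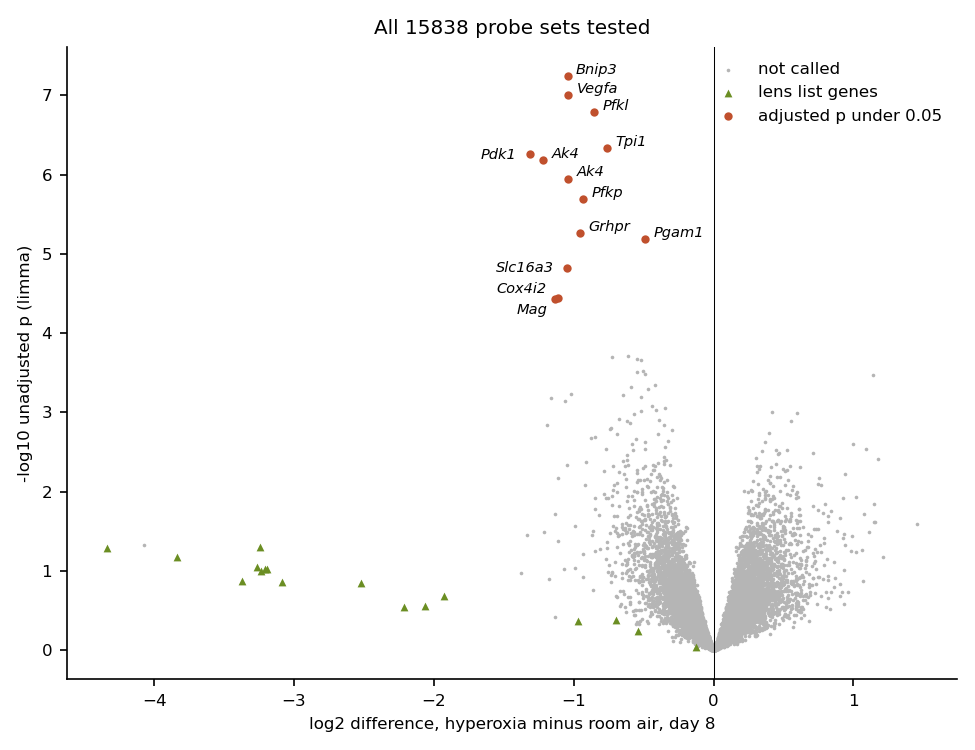
Each point is 1 of the 15838 probe sets tested; the horizontal axis is the log2 difference of hyperoxia from room air at day 8 and the vertical axis is −log10 of the unadjusted limma p. The 13 called probe sets (orange) stand apart on the left, and the lens genes (green triangles) hold most of the differences beyond −2 and were not called.

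The room air arrays also differed among themselves in the level of lens transcripts. Where these transcripts came from was not tested. The mean log2 intensity of 15 lens genes, mostly crystallins, was 13.16, 11.04 and 8.91 in room air replicates 1 to 3, and 8.94, 8.15 and 7.81 in the hyperoxia replicates. Room air replicates 1 and 2 therefore stood above the other 4 arrays, on which the level was low, and the third room air array was level with the first hyperoxia array. No lens gene was called. Of the 15 lens genes tested, 15 were lower in hyperoxia with a median of −3.20, and 7 of them did not overlap between the groups. Crygd, a lens crystallin, had the largest difference, −4.34 ± 2.09 (SE). The 9 markers of pigment epithelium and melanocytes shared this order in part. Their mean log2 intensity was 10.35, 10.38 and 9.99 in room air and 9.79, 9.83 and 9.91 in hyperoxia. All 9 were lower in hyperoxia with a median of −0.40, and 0 were called. Of these, 5 did not overlap between the groups, against 5.63% of all genes tested on the lower side. The summed intensity of 17 rod photoreceptor genes was 244000, 247000 and 230000 in room air and 252000, 233000 and 245000 in hyperoxia, with overlapping groups. Over all probe sets, room air replicate 1 had the lowest mean correlation with its own group, 0.9543, against 0.9532 with the hyperoxia arrays. Room air replicates 2 and 3 correlated at 0.9684 and 0.9646 with their own group. With the hyperoxia arrays they correlated at 0.972 and 0.9782. Ratios of 3′ to 5′ probe sets, a measure of RNA integrity, were between 0.777 and 0.821 for Gapdh and between 1.02 and 1.15 for actin, with no gap between the groups.

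With the lens level as a covariate 9 of the 13 probe sets were called and the 4 lost were those of Pgam1, Slc16a3, Mag and Cox4i2. In that fit their differences were −0.46 ± 0.09 (adjusted p = 0.0601), −1.07 ± 0.20 (adjusted p = 0.0601), −1.05 ± 0.22 (adjusted p = 0.202) and −1.08 ± 0.23 (adjusted p = 0.202) in turn. With the pigment level added, 8 were called and Grhpr was lost as well. Without room air replicates 1 and 2, an alternative chosen after seeing the data that leaves 1 room air array, limma called no probe set and 519 had an unadjusted p under 0.05. The lone room air array is assumed there to vary like the other groups. Against it all 13 differences were below 0, from −0.43 for Pgam1 to −1.25 ± 0.27 for Pdk1, with −0.95 ± 0.18 for Bnip3, −0.90 ± 0.18 for Vegfa and −0.68 ± 0.20 for Grhpr.

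**Figure D2:**
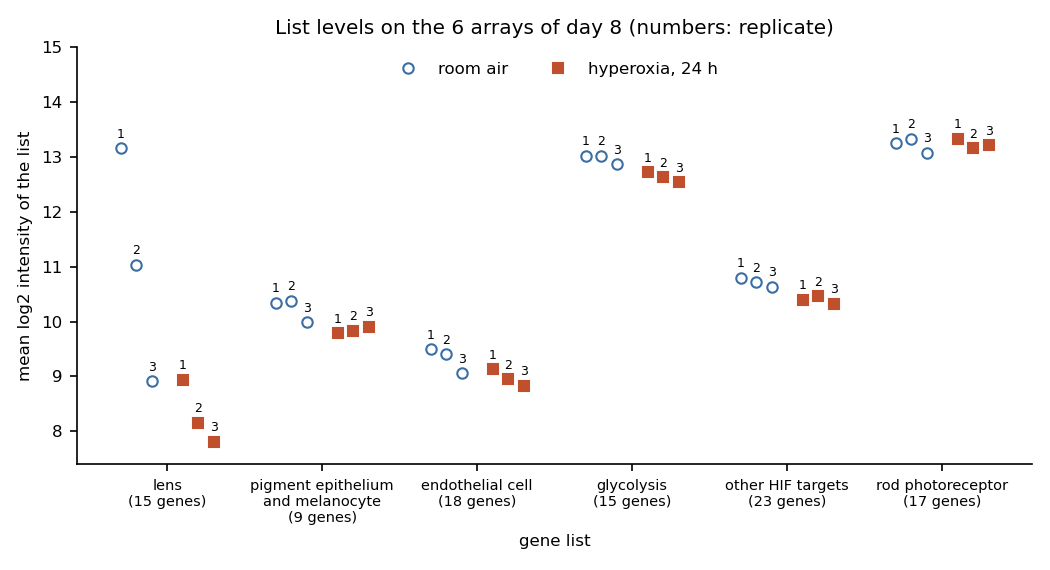
Mean log2 intensity of 6 gene lists on each day 8 array, room air as open circles and hyperoxia as filled squares, with the replicate number above each; levels are to be compared within a list only. The lens list runs from 7.81 to 13.16 with room air replicates 1 and 2 on top. The glycolysis, HIF target and pigment epithelium lists separate the groups by small steps. The endothelial and rod lists do not separate them.

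Promoters of the called genes are shown because 11 of the 12 genes have an entry in the RefSeq promoter table and because most of these genes are textbook targets of HIF. HIF binds a short core, ACGTG or GCGTG, within the hypoxia response element. The 250 bases before each gene's most upstream start (RefSeq, GRCm38.p6) were searched for both cores on both strands. On the printed strand the first core reads ACGTG, or CACGT where it lies on the other strand. The second core reads GCGTG, or CACGC where it lies on the other strand. Capitals mark the matches, and the palindrome CACGTG in Bnip3 is a pair of overlapping matches. Bnip3 (chr7:138909507-138909756, minus strand) had the most, 5 matches. Slc16a3 (chr11:120948817-120949066, plus strand) had 2, Pfkp (chr13:6648772-6649021, minus strand) had 3 and Pdk1 (chr2:71872974-71873223, plus strand) had 1. Vegfa (chr17:46032378-46032627, minus strand) is shown as a window with no match.
Bnip3: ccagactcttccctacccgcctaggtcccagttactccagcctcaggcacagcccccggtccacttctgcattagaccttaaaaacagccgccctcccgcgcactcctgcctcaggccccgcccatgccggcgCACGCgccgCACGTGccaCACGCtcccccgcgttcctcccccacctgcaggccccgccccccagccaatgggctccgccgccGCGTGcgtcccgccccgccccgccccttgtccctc
Slc16a3: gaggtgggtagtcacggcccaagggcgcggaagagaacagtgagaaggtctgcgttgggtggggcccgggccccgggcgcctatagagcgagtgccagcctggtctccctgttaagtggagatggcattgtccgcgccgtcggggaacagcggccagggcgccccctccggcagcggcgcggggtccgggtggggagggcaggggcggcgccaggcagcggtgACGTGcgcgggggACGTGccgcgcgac
Pfkp: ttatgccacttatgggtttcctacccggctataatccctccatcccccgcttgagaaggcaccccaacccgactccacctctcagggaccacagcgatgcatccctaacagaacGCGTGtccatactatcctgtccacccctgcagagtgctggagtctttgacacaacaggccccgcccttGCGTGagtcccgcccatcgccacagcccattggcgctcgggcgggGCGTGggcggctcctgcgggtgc
Pdk1: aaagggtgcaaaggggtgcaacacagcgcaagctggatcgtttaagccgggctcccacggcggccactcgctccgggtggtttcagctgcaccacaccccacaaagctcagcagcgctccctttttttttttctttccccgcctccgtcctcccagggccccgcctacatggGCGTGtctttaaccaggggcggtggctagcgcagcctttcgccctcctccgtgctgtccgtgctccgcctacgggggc
Vegfa: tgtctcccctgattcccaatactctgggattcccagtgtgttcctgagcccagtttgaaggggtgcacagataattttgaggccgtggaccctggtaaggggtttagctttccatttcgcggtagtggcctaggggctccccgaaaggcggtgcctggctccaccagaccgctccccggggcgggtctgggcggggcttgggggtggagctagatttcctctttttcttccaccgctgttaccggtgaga

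A match was found in 7 of these 11 promoters (63.6%), against 4246 of 7509 promoters of genes tested (56.5%) and 10442 of 27025 promoters in the table (38.6%). Ak4, Pfkl and Pgam1 were the other genes with a match, and Grhpr, Mag and Tpi1 had none in this window. At least 2 matches were found in 5 of 11 (45.5%), against 27.9% of the promoters of genes tested. The share with a match among the called genes was thus near that of the genes tested. A match is a string of letters and not a measured binding site.

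The signal for vessel growth was among the clearest decreases. Vegfa encodes the secreted factor that guides and sustains retinal vessels. Its log2 intensity was 11.07, 11.15 and 10.91 in room air and 9.98, 10.26 and 9.78 in hyperoxia. Every hyperoxia array was low, and the highest of them stood well under the lowest room air array. The difference was −1.04 ± 0.13 (SE, 3 arrays per group; limma, adjusted p = 0.000794), which left 48.6% of the room air level. A second Vegfa probe set was also lower in every hyperoxia array but did not pass the threshold, with a difference of −0.47 ± 0.22.

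Bnip3, whose product sits on the outer mitochondrial membrane and drives the removal of mitochondria, had the lowest p of all. Its log2 intensity was 12.80, 12.84 and 12.68 in room air and 11.85, 11.88 and 11.46 in hyperoxia. The room air arrays agreed closely, and the third hyperoxia array was the lowest of the 6. The difference was −1.04 ± 0.12 (adjusted p = 0.000794), or 48.5% of the room air level.

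**Figure D3:**
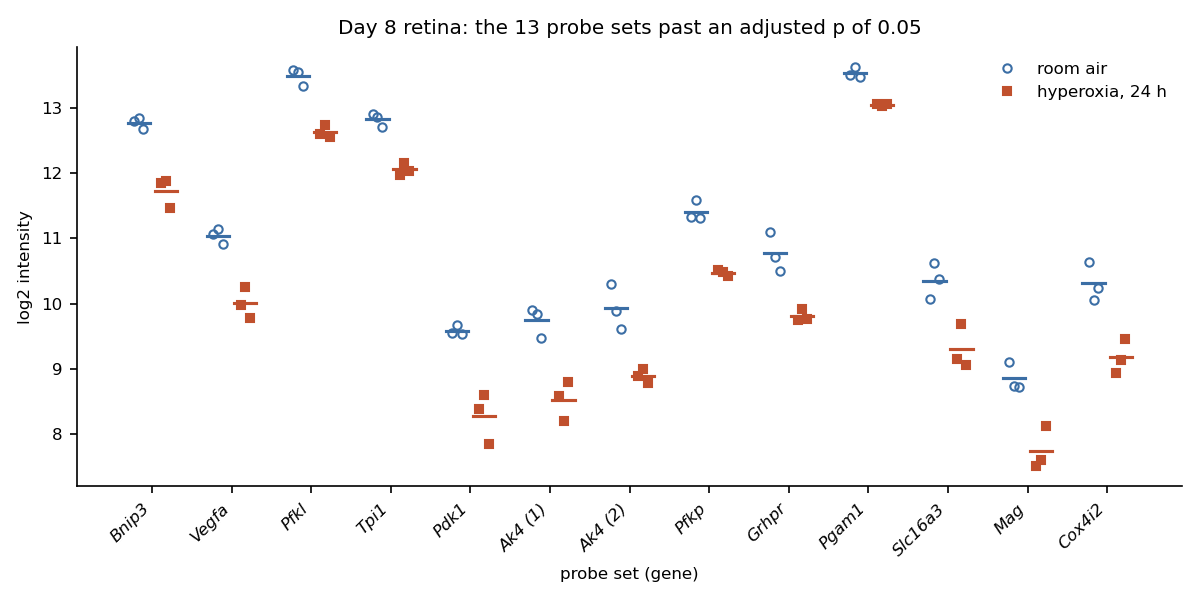
Log2 intensity on each day 8 array for the 13 called probe sets, ordered by p; open circles are the 3 room air arrays, filled squares the 3 hyperoxia arrays, and bars the group means. In every case the groups are apart, by the widest margin for Pdk1 and with the narrowest hyperoxia group for Pgam1, whose hyperoxia arrays lie between 13.02 and 13.06. Ak4 (1) and Ak4 (2) are 2 probe sets of 1 gene.

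Glycolysis held 4 of the called genes. Phosphofructokinase, the enzyme that commits glucose to glycolysis, is built from liver, platelet and muscle type subunits, and the first 2 types fell. Pfkl, the liver type, read 13.58, 13.56 and 13.33 in room air and 12.61, 12.74 and 12.55 in hyperoxia, a difference of −0.85 ± 0.11 (adjusted p = 0.000867). Pfkp, the platelet type, read 11.33, 11.58 and 11.32 in room air and 10.51, 10.49 and 10.43 in hyperoxia, a difference of −0.93 ± 0.14 (adjusted p = 0.00406). For both genes the hyperoxia arrays lay in a narrow band with a clear gap to room air. A second Pfkl probe set was lower by −0.61 ± 0.13 and missed the threshold (adjusted p = 0.202), and a second Pfkp probe set was lower by −0.71 ± 0.28 with overlapping groups.

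Triose phosphate isomerase, which interconverts the 3-carbon sugars made by aldolase, is encoded by Tpi1. Its called probe set read 12.90, 12.86 and 12.71 in room air and 11.98, 12.16 and 12.04 in hyperoxia, a difference of −0.76 ± 0.10 (adjusted p = 0.00174). Its 2 other probe sets, with adjusted p-values of 0.202 and 0.255, also had every hyperoxia array below every room air array, by −0.52 ± 0.12 and −0.51 ± 0.12. Phosphoglycerate mutase 1, encoded by Pgam1, acts later in the same pathway. Pgam1 read 13.50, 13.63 and 13.47 in room air and 13.05, 13.02 and 13.06 in hyperoxia. The decrease was the smallest of those called, −0.49 ± 0.08 (adjusted p = 0.0104), and left 71.2% of the room air level.

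Pdk1 encodes the kinase that shuts the pyruvate dehydrogenase complex and so keeps pyruvate out of the mitochondrion. Its called probe set read 9.55, 9.68 and 9.53 in room air and 8.38, 8.60 and 7.85 in hyperoxia. The room air arrays were level and the third hyperoxia array was the lowest. The difference of −1.31 ± 0.18 (adjusted p = 0.00174) was the largest of the 13 and left 40.3% of the room air level. The brighter Pdk1 probe set had the same order of groups but a difference of −0.49 ± 0.14 (adjusted p = 0.739), so the size of the Pdk1 decrease depended on the probe set.

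Lactate leaves glycolytic cells through the monocarboxylate transporter encoded by Slc16a3. Slc16a3 read 10.07, 10.62 and 10.37 in room air and 9.15, 9.69 and 9.07 in hyperoxia. Both groups spread by about as much as each other, and the second replicate was the highest in each. The difference was −1.05 ± 0.18 (adjusted p = 0.0215).

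Ak4 encodes a mitochondrial adenylate kinase and was called on both of its probe sets. The one with the lower p read 9.91, 9.84 and 9.48 in room air and 8.59, 8.20 and 8.80 in hyperoxia, a difference of −1.22 ± 0.17 (adjusted p = 0.00174). The other read 10.30, 9.89 and 9.62 in room air and 8.90, 9.00 and 8.78 in hyperoxia, a difference of −1.04 ± 0.15 (adjusted p = 0.00254). On both, the third room air array was the lowest of its group and still above every hyperoxia array.

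Cox4i2 encodes the alternative form of a cytochrome oxidase subunit that is favoured in low oxygen. Cox4i2 read 10.64, 10.05 and 10.24 in room air and 8.93, 9.14 and 9.46 in hyperoxia, a difference of −1.14 ± 0.21 (adjusted p = 0.0448). The first replicate was the highest of the room air arrays and the lowest of the hyperoxia arrays. Cox4i1, the usual form of the same subunit, differed by 0.04 ± 0.08.

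Grhpr and Mag have no textbook place in the oxygen response. Grhpr encodes an enzyme that reduces glyoxylate and hydroxypyruvate. Grhpr read 11.09, 10.72 and 10.50 in room air and 9.76, 9.92 and 9.77 in hyperoxia, and its difference was −0.96 ± 0.16 (adjusted p = 0.00959). The room air arrays were spread in the order of their lens levels, while the hyperoxia arrays were close together. The called probe sets of Ak4, Pfkl, Tpi1 and Mag had the same order of room air arrays. Those of Bnip3, Vegfa, Pdk1, Pfkp, Pgam1, Slc16a3 and Cox4i2 did not. The share of all probe sets with this order was not counted. The Grhpr decrease was still called with the lens level as a covariate (−0.96 ± 0.17, adjusted p = 0.0329) and not with the pigment level added (adjusted p = 0.0905).

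Mag encodes myelin-associated glycoprotein, an adhesion protein of myelinating glia. Mag read 9.10, 8.74 and 8.72 in room air and 7.51, 7.60 and 8.12 in hyperoxia, a difference of −1.11 ± 0.21 (adjusted p = 0.0448). The groups were apart, with the third hyperoxia array nearest to room air. The other 4 myelin and oligodendrocyte genes tested were not called: Cnp differed by 0.25 ± 0.19, Mbp by 0.06 ± 0.18, Mal by −0.08 ± 0.21 and Sox10 by −0.04 ± 0.19. Mag and Cox4i2 were the weakest of the called genes, with adjusted p-values past the threshold in 6 of 18 and 7 of 19 other settings of the analysis, against 17 of 19 for Bnip3, Vegfa and Pfkl.

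Beyond the called genes, the members of several gene lists were counted by their brightest probe set. Over all 9266 genes tested, 10 fell, 50.7% had a difference below 0, the groups did not overlap for 5.63% on the lower and 4.61% on the higher side, and the median difference was −0.0026. By this count Tpi1 and Pdk1, whose called probe sets are not their brightest, are not among those that fell.

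Of 15 glycolysis genes tested, 3 fell, 14 were below 0 and 6 had groups that did not overlap, with a median difference of −0.19. Besides the genes above, Pfkfb3, whose product makes the activator of phosphofructokinase, read 9.00, 9.43 and 9.36 in room air and 8.87, 8.19 and 8.11 in hyperoxia, a difference of −0.87 ± 0.25 that missed the threshold (adjusted p = 0.648). Its first hyperoxia array was close to room air and the other pair far below. A second Pfkfb3 probe set differed by −0.15. Pyruvate kinase (Pkm) differed by −0.19 ± 0.08, hexokinase 1 (Hk1) by −0.03 ± 0.11 and lactate dehydrogenase A (Ldha) by −0.13 ± 0.09. Aldolase A (Aldoa) and phosphoglycerate kinase (Pgk1), which act between Pfkl and Pgam1, differed by −0.16 ± 0.13 and −0.18 ± 0.11 on their brightest probe sets, with overlapping groups. Without room air replicates 1 and 2 the list median was −0.12 and Pgk1 was at 0.065, and without room air replicate 3 the median was −0.30.

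Of 5 genes for lactate and glucose transport, 1 fell and 5 were below 0, with a median of −0.28. Slc2a3, the neuronal glucose transporter, differed by −0.38 ± 0.13, and Bsg, the chaperone that brings the lactate transporters to the membrane, by −0.28 ± 0.10. Both had groups that did not overlap on these probe sets. The 4 Slc2a3 probe sets had mixed signs, from −0.38 to 0.24. Slc2a1, the glucose transporter of the vessel wall and glia, differed by −0.09 ± 0.20 on its brightest probe set. The list median was −0.20 without room air replicates 1 and 2.

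No gene of the pyruvate dehydrogenase complex itself was called. Among 7 genes of the complex and its kinases counted together, 0 fell and the median was 0.00. That count includes the kinase genes Pdk1, by its brightest and uncalled probe set (−0.49 ± 0.14), and Pdk3 (−0.12 ± 0.11). Pdha1 encodes the subunit that these kinases phosphorylate. Pdha1 read 12.71, 12.64 and 12.57 in room air and 13.19, 12.91 and 13.02 in hyperoxia. The difference was 0.40 ± 0.13 (adjusted p = 0.932). Dlat, the next enzyme of the complex, was 0.28 ± 0.13 higher. For both genes all hyperoxia arrays were above all room air arrays, and neither passed the threshold. Of the 3 Dlat probe sets, 1 was below 0, at −0.03.

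Among 23 other HIF targets, 3 fell (Bnip3, Ak4 and Cox4i2), 21 were below 0 and 9 did not overlap, with a median of −0.28. P4ha1, a collagen prolyl hydroxylase subunit, read 10.79, 10.55 and 10.32 in room air and 9.95, 10.17 and 9.99 in hyperoxia, a difference of −0.52 ± 0.13 (adjusted p = 0.369). Fam162a, a mitochondrial protein of the hypoxic cell death response, differed by −0.34 ± 0.09 (adjusted p = 0.453) with little spread in either group. Ddit4, an inhibitor of mTOR signalling, differed by −0.47 ± 0.18, Higd1a, a mitochondrial survival factor, by −0.35 ± 0.14, and Plod1 and Plod2, which hydroxylate collagen lysines, by −0.28 ± 0.13 and −0.24 ± 0.11. None of these 6 genes passed the threshold. A second P4ha1 probe set differed by −0.15, and the 3 Higd1a probe sets ran from −0.54 to 0.01. The list median was −0.21 with the lens level as a covariate and −0.18 without room air replicates 1 and 2.

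Of 9 genes of the oxygen sensor, 0 fell, 6 were below 0 and the median was −0.08. Egln1, the main HIF prolyl hydroxylase and itself a HIF target, read 12.12, 12.19 and 12.17 in room air and 11.89, 11.74 and 11.78 in hyperoxia, a difference of −0.36 ± 0.11 (adjusted p = 0.83). Hif1a, whose protein rather than its mRNA is set by oxygen, differed by −0.22 ± 0.13 on its brightest probe set, and its groups did not overlap there. The 4 Hif1a probe sets had mixed signs, from −0.27 to 0.60.

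**Figure D4:**
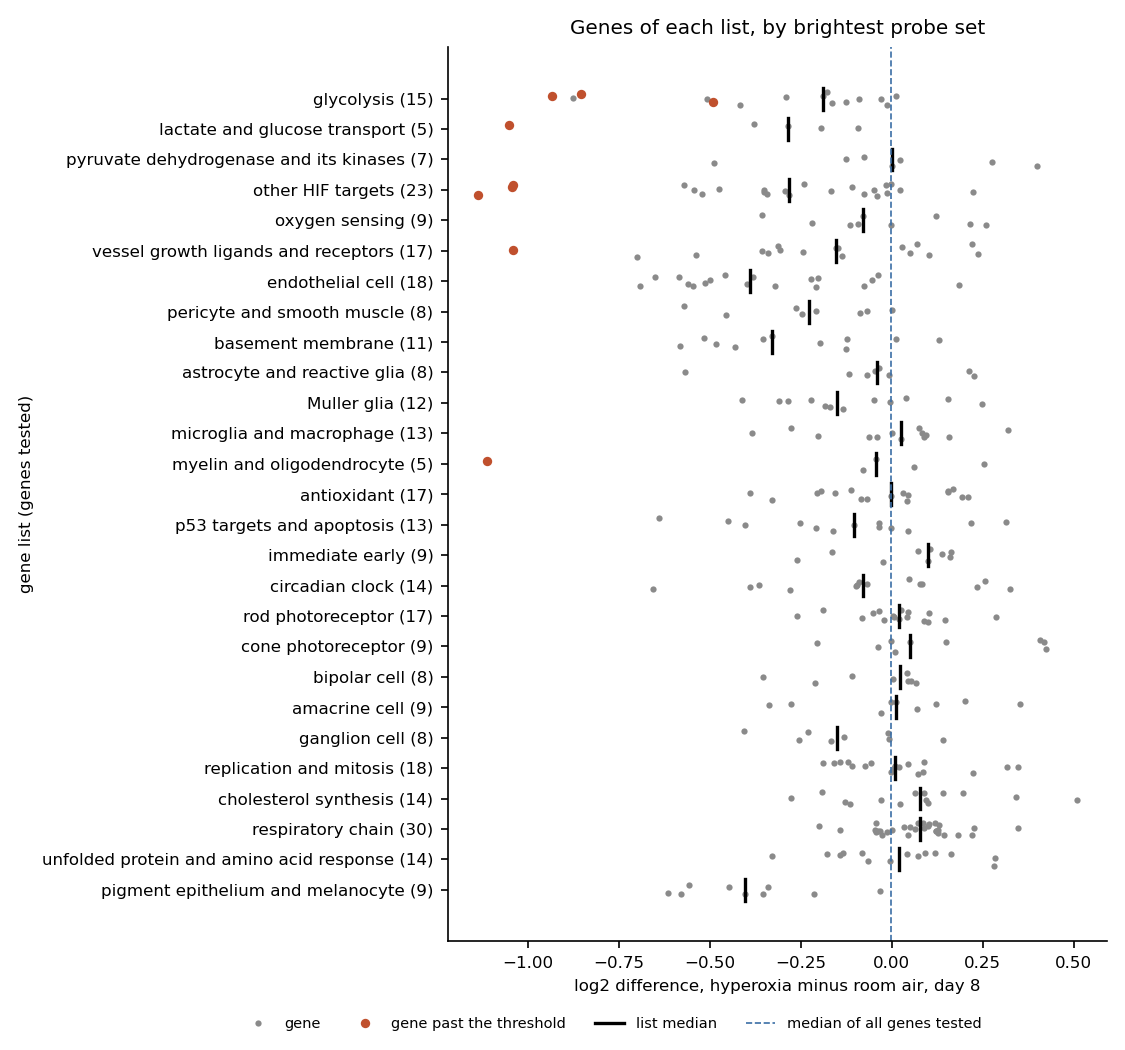
Each point is the log2 difference of 1 gene at day 8 by its brightest probe set, in 27 gene lists with the number tested in brackets (the lens list, at −3.20, is not drawn); black ticks are list medians, the dashed line the median of all 9266 genes, and orange points the genes past the threshold. The HIF, glycolysis, endothelial, basement membrane and pigment epithelium lists, among others, lie mostly to the left of the line. The photoreceptor, bipolar and respiratory chain lists lie on or slightly to the right of it.

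Of 17 ligands and receptors of vessel growth, Vegfa alone fell, 11 were below 0 and the median was −0.15. That median was −0.28 with the lens level as a covariate, −0.10 without room air replicates 1 and 2, and −0.25 when hyperoxia replicate 1 alone or room air replicate 3 alone was left out. The receptors of VEGF gave values near 0: Kdr differed by 0.05 ± 0.16, Flt1 by 0.07 ± 0.38 and Nrp1 by 0.10 ± 0.13. Apln, a peptide of the growing vessel tip, read 11.09, 10.68 and 10.39 in room air and 10.12, 10.34 and 10.08 in hyperoxia, a difference of −0.54 ± 0.18 (adjusted p = 0.892), and its receptor gene Aplnr differed by −0.70 ± 0.30. In both genes the room air arrays followed the order of their lens levels. Ndp, a glial signal for retinal vessels, differed by −0.31 ± 0.14.

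Most genes of the vessel wall had values below 0, and none passed the threshold. Of 18 endothelial genes, 0 fell, 17 were below 0, 4 did not overlap and the median was −0.39. Cldn5, a tight junction protein, read 11.01, 10.93 and 10.40 in room air and 10.13, 9.95 and 10.19 in hyperoxia, a difference of −0.69 ± 0.19 (adjusted p = 0.61). Ramp2, Cd34 and Eng, genes of endothelial signalling and adhesion, differed by −0.59 ± 0.17, −0.55 ± 0.19 and −0.51 ± 0.22, while Pecam1 differed by −0.56 ± 0.26 and Cdh5, the endothelial cadherin, by −0.21 ± 0.18. The summed intensity of the 18 genes was 15400, 14500 and 11000 in room air and 11200, 10100 and 9600 in hyperoxia. The first 2 room air arrays were again the highest, and the third lay under the first hyperoxia array. The median was −0.50 with the lens level as a covariate and −0.12 without room air replicates 1 and 2. Those 2 arrays were also the highest of the endothelial list, so leaving them out makes the difference smaller by construction. The median was −0.30 without room air replicate 1 alone and −0.31 without room air replicate 2 alone.

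Of 8 genes of pericytes and smooth muscle, 7 were below 0 with a median of −0.23, and 1 did not overlap. That gene was Rgs5, a pericyte marker, which read 12.52, 12.51 and 12.16 in room air and 11.92, 11.69 and 11.86 in hyperoxia, a difference of −0.57 ± 0.15 (adjusted p = 0.456). Of 11 basement membrane genes, 9 were below 0 with a median of −0.33. Sparc differed by −0.35 ± 0.14 and Col4a2 by −0.48 ± 0.23. Without room air replicates 1 and 2 the medians of these lists were −0.03 and −0.13, and the median of the pericyte list was −0.08 without room air replicate 1 alone.

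Glia and immune cells gave no called gene apart from Mag. The medians were −0.04 over 8 genes of astrocytes and reactive glia, −0.15 over 12 Müller glia genes and 0.03 over 13 genes of microglia and macrophages. Gfap, the filament protein that reactive glia make, differed by 0.23 ± 0.17. Osmr, a cytokine receptor, differed by −0.57 ± 0.21 at an intensity near the floor, and Lyz2, a macrophage lysozyme, by −0.38 ± 0.18 with overlapping groups. Of the 13 microglia and macrophage genes 5 were below 0 and 8 above it, among them Ctss at 0.32 ± 0.18.

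The neurons of the retina gave no called gene either. The medians were 0.02 over 17 rod genes, 0.05 over 9 cone genes, 0.02 over 8 bipolar genes, 0.01 over 9 amacrine genes and 0.10 over 4 horizontal cell genes, and none of these genes had groups that did not overlap. The 8 ganglion cell genes had a median of −0.15, with 7 below 0 and every gene overlapping between the groups. Pax6, a transcription factor kept by amacrine cells, differed by 0.35 ± 0.17.

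Genes of cellular stress gave no called gene. Of 17 antioxidant genes, 0 were called, 9 were below 0 and the median was −0.0023. Of 14 genes of the unfolded protein and amino acid response, 7 were below 0 with a median of 0.02. The median was −0.10 over 13 p53 targets and apoptosis genes, among which Bcl2, an inhibitor of apoptosis, differed by −0.64 ± 0.21 and Cdkn1a, a cell cycle inhibitor, by −0.45 ± 0.19. Of 18 genes of replication and mitosis, 8 were below 0 with a median of 0.01. Immediate early genes (9, median 0.10) and clock genes (14, median −0.08) gave no called gene.

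Genes of mitochondrial respiration and of sterol synthesis were more often above 0 than below it. Of 30 respiratory chain genes, 20 were above 0, 5 did not overlap on the higher side and the median was 0.08. Cycs, cytochrome c, differed by 0.35 ± 0.16 and Cox5a, a cytochrome oxidase subunit, by 0.22 ± 0.11, neither past the threshold. Of 14 genes of cholesterol synthesis, 9 were above 0 and 3 did not overlap, with a median of 0.08, and Mvd, a decarboxylase of the mevalonate pathway, differed by 0.51 ± 0.16 (adjusted p = 0.849). The respiratory chain median was 0.03 with the lens level as a covariate and 0.04 without room air replicate 1, and the cholesterol median was −0.01 when hyperoxia replicate 1 was left out and 0.04 when room air replicate 1 or replicate 3 was.

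No gene rose past the threshold. The 10 named genes with the lowest p among those whose hyperoxia arrays all lay above room air were Edem1, Ppm1d, Pabpn1, Acbd3, Rpl13a, Tnks2, Rad51d, Ltc4s, Cbfb and Rnd2, with differences between 0.37 and 1.14 and adjusted p-values from 0.255 to 0.739. Edem1, which helps to clear misfolded glycoproteins, had the lowest p: it was at the floor of 7.10 in room air replicates 1 and 2 and at 7.77 in replicate 3, against 8.65, 8.27 and 8.47 in hyperoxia. Its difference of 1.14 ± 0.26 is therefore understated, and it had an adjusted p of 0.255. Ppm1d, a phosphatase that opposes p53, read 11.09, 10.97 and 10.94 in room air and 11.32, 11.34 and 11.58 in hyperoxia, a difference of 0.42 ± 0.11 (adjusted p = 0.453). These genes share no list among those counted here.

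The decreases at day 8 were set beside those at the other ages, which use other arrays. At day 7, after 12 hours, all 13 probe sets were below 0 and 10 were called, which were all 10 of the probe sets called at that age (0.0631% of those tested); their median difference was −0.74 against −1.04 at day 8. At day 10, after 72 hours, 12 of 13 were below 0 and 2 were called, of 10 called at that age (0.0631%), with a median of −0.53. At day 12, after 120 hours, 9 of 13 were below 0 and 0 were called, of 2 called (0.0126%), with a median of −0.06. The 13 were picked by their day 8 values, which favours a larger median decrease at that age. Age and hours of exposure rise together and cannot be told apart.

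The called Vegfa probe set shows the course. Its room air means were 11.16, 11.04, 11.08 and 11.10 at days 7, 8, 10 and 12, while its hyperoxia means were 10.28, 10.00, 10.57 and 11.14. The room air level was flat, and the hyperoxia level was lowest at day 8 and within 1 SE of room air at day 12. On the second Vegfa probe set the hyperoxia means were 9.51, 9.84, 9.94 and 10.53, lowest at day 7. Its differences were −1.09, −0.47, −0.33 and 0.08. Bnip3 differed by −0.74, −1.04, −0.69 and −0.05 at the same ages, each ± 0.12. Mag took another course, with −0.16, −1.11, 0.35 and 0.76, each ± 0.21, so that its decrease was present at day 8 and its difference had the opposite sign at days 10 and 12 without being called there.

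**Figure D5:**
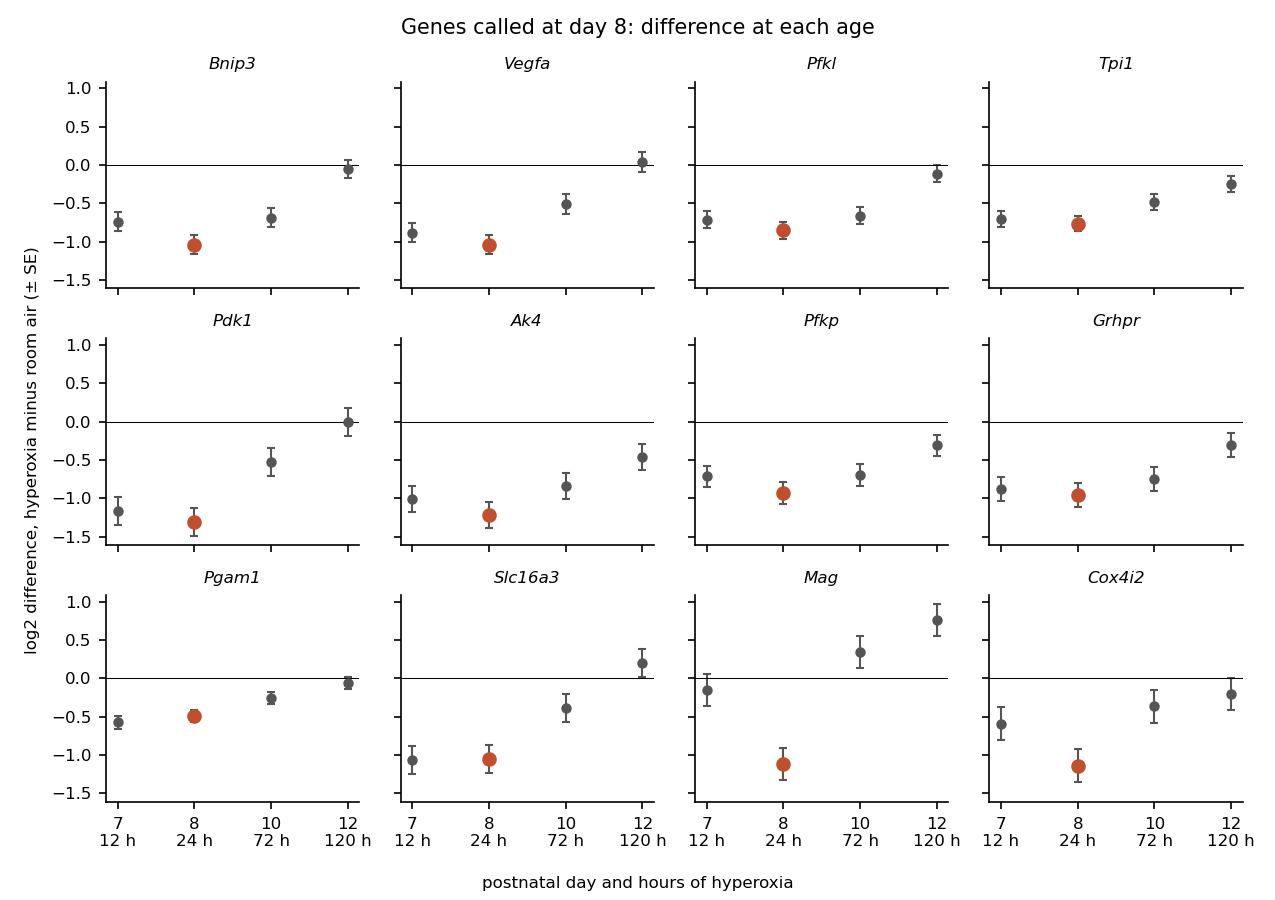
Log2 difference of hyperoxia from room air (± SE, 3 arrays per group) for the 12 genes called at day 8, by age and hours of hyperoxia; day 8 is in orange, and Ak4 and others with several probe sets are shown by the called probe set with the lowest p. Most genes return toward 0 at day 12, and Mag is above 0 at days 10 and 12.

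Whether the day 8 difference itself differs from that at another age was tested directly. For day 8 minus day 7, day 8 minus day 10, day 8 minus day 12 and day 8 minus the mean of the other ages, limma called 0 probe sets, with 592 (3.74%), 1103 (6.96%), 1248 (7.88%) and 953 (6.02%) at an unadjusted p under 0.05. The 13 were picked by their day 8 values, which favours a larger decrease at day 8 in advance. Counts over them are therefore a description and not a test. Uncalled probe sets of Vegfa, Pdk1, Pfkp and Pfkl had a larger decrease at day 7 than at day 8. Those of Tpi1 had a smaller one. Among the 13, day 8 had the larger decrease in 11 of 13 against day 7, and in 13 of 13 against days 10 and 12. An unadjusted p under 0.05 was reached by 1, 7 and 13 of them in turn. The nearest to the threshold were those against day 12: Mag differed by −1.87 ± 0.30 (adjusted p = 0.0629), Vegfa by −1.08 ± 0.18 (adjusted p = 0.0664) and Bnip3 by −0.99 ± 0.17 (adjusted p = 0.0832). None of the decreases can thus be called particular to day 8 by this test.

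The lists took different courses with age. The median of the other HIF targets was −0.16, −0.28, −0.14 and −0.05 at days 7, 8, 10 and 12, with its lowest value at day 8. The endothelial median was −0.22, −0.39, −0.59 and −0.44, with its lowest value at day 10, and the glycolysis median was −0.16, −0.19, −0.18 and −0.08. The lens median was −0.52, −3.20, 0.71 and 1.01, so the difference in lens RNA was at its widest at day 8. Differences between ages were not tested for the lists.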

How the data were processed

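Arrays were grouped by their labels. The authors deposited linear intensities, 1 value for each of 22690 probe sets on every array, and 64 of the sets are controls; their software is not stated in the labels. With 2% trimmed at each end, array means lay between 1500.35 and 1500.4, so the authors' intensities carry a common scaling. Intensities were taken to log2 and quantile normalized over 24 arrays, because the medians of the deposited log2 intensities spanned 0.253. Values under the 20th percentile (a signal of 136.8) were raised to it, which understates differences near that floor and touched 0.341% of the day 8 values tested. Probe sets with a mean under the 30th percentile were removed, leaving 15838. Of 22626 probe sets, 20380 had 1 gene symbol in the platform annotation, 691 several and 1555 none; only the first were named.

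Contrasts of group means were tested with limma 3.58.1 in R 4.3.3 (16 residual and 3.54 prior degrees of freedom, Benjamini-Hochberg over all probe sets), and the code was tested on simulated data. The precision is limited by 3 arrays per group; the spread of single probes was not analysed. Figures used matplotlib 3.10.9 in Python 3.11.15.

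Named were all called genes, the 10 rises with the lowest p whose groups did not overlap, and members of 32 gene lists (494 symbols), up to 4 per list by p; further members were picked for their role with their values in view. The members and lists were chosen with earlier results of these data known. Alternatives covered the scaling, floor, filter, arrays, replicate block, prior, array weights, lens and pigment levels, and 1 probe set per gene.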

Additional observations from a re-analysis of the deposited data

How the results depend on the processing

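The 13 decreases kept their direction in every alternative run. The count was 13 with the deposited scaling, with no floor and with array weights, 12 with a higher floor, 11 with no filter (10 of them shared with the 13) and with a filter at the 50th percentile, 10 with 1 probe set per gene, 17 with a trended robust prior (12 shared) and 9 with the lens level as a covariate. It was 8 with lens and pigment levels, 0 with only the 6 day 8 arrays, 0 without the 2 room air arrays highest in lens transcripts (an alternative chosen after seeing the data), and 7 to 11 when 1 day 8 array was left out. Day 8 minus day 7 gave 0 calls throughout. Day 8 minus day 10 gave 1 call with no filter and 0 to 0 with 1 array left out. Day 8 minus day 12 gave 1 with the deposited scaling, 6 with no filter and 0 to 1 with 1 array left out. Day 8 minus the mean of the other ages gave 0 to 1, the 1 without hyperoxia replicate 3. The cause of these changes was not tested; fits on fewer arrays have a larger error by construction.

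Deviations of same-numbered day 8 arrays correlated at −0.31, −0.0204 and −0.0139, so these pairs showed no positive pairing. Over the 24 arrays, 84 same-numbered pairs had a median correlation of 0.071. With the replicate block 17 probe sets were called (16 lower, 1 higher, 12 shared with the 13), and day 8 minus day 12 gave 2; Cox4i2 was lost and Edem1 passed (adjusted p = 0.0124).

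Differences near 0 changed sign. Without the 2 room air arrays highest in lens transcripts, Pgk1 was 0.065, Hk1 0.12, Slc2a1 0.15, Mbp −0.23 and Mal 0.21. With the lens covariate, Cox4i1 was −0.0042, Mbp −0.015 and Flt1 −0.069. With lens and pigment covariates, Slc2a1 was 0.075, Mbp −0.012 and Mal 0.046. With array weights, Slc2a1 was 0.049, Mal 0.046 and Sox10 0.061. With 1 array left out, Slc2a1 ran from −0.21 to 0.11, Mal from −0.22 to 0.16, Sox10 from −0.27 to 0.12, Hk1 from −0.11 to 0.014, Cox4i1 from −0.0081 to 0.080, Mbp from −0.089 to 0.20 and Nrp1 from −0.064 to 0.27. Osmr was 0.00 with the higher floor.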

Other observations

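Several genes of the sugar and oxygen lists were read by more than 1 probe set, and these did not give the same size of difference. Of 30 such genes, 15 had every probe set below 0, 12 had mixed signs and 3 had none below 0. In 10 of the 15 the brightest probe set had the difference nearest to 0. Most of the 15 had only 2 probe sets, and the share over all genes with several probe sets was not counted. Others of the 15, among them Pfkl, Pfkp, Pfkfb3 and P4ha1, had their largest decrease on the brightest probe set. For Pfkfb3 these were −0.87 on the brightest and −0.15 on the other. Genes with mixed signs are outside this count. Aldoa, a glycolytic aldolase, differed by −0.16 on its brightest probe set and by −0.55 on its most negative one. Pgk1, phosphoglycerate kinase, gave −0.18 and −0.63, Slc2a1 gave −0.09 and −0.49, and Egln1 gave −0.36 and −0.74. The cause was not tested.

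The following 3 genes belonged to none of the lists and were chosen after their values were seen. Slco1c1, a thyroid hormone transporter of barrier vessels, had a mean log2 intensity of 8.52 in room air and 7.46 in hyperoxia, a difference of −1.06 ± 0.27 (limma, adjusted p = 0.392). Slc22a8, an organic anion transporter, had means of 8.29 and 7.45, a difference of −0.85 ± 0.24 (adjusted p = 0.636), while a second Slc22a8 probe set differed by −0.15 ± 0.26. Apcdd1, an inhibitor of Wnt signalling in barrier vessels, differed by −1.02 ± 0.25 (adjusted p = 0.367) on 1 of 4 probe sets and by −0.38, −0.41 and −0.23 on the others. The groups of the first probe set named for each gene did not overlap. None of these passed the threshold, and the part of the lens RNA in room air replicates 1 and 2 was not tested for them.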
